A study of Arabidopsis thaliana with 12 samples.

Results

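Cytosolic ribosomal protein genes encode the proteins that, with ribosomal RNA, build the ribosomes of the plant cytosol. The genes described here were chosen from 56 listed Arabidopsis loci, as those to which the array's probe annotation gives a probe set of their own, with the probe set of highest mean signal where a gene had several. This gave 31 genes, each on 1 probe set, among the 13334 genes named by the array in all. Of the 31, 24 encode proteins of the small subunit (36 listed) and 7 proteins of the large subunit (20 listed), and they cover 16 of the 23 listed protein families. A further 7 listed loci were named only on 4 probe sets shared with sister genes and are given separately, and 18 were not analysed here. All 31 genes passed the filter on low signals.

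Root RNA of Arabidopsis thaliana Col-0, an inbred laboratory strain, was measured on 12 Affymetrix ATH1 arrays, with the stage given as 3.90 weeks. The 4 groups were pH 6 for 8 h, pH 4.5 for 8 h, pH 6 for 1 h and pH 4.5 for 1 h, with 3 arrays each. All groups carried the same genotype and stock, and all plants were started in agarose-filled tubes and then grown in non-sterile hydroponic culture on a dilute nutrient solution. The labels give neither a group sampled before treatment nor the pH of the culture before it, and they do not state whether replicates came from separate cultures, so the p-values measure the spread between these arrays, which may be in part technical.

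Each ribosome has a small subunit, which binds and decodes the messenger RNA, and a large subunit, which joins the amino acids. In Arabidopsis nearly every ribosomal protein is encoded by a small family of paralogous genes whose products are very similar, and growing tissues such as roots express most of them strongly. Making ribosomes takes a large part of a growing cell's resources, and in many organisms ribosomal protein genes are known to change together with growth conditions. Family names below (S for small, L for large subunit proteins) follow the established Arabidopsis nomenclature and are not given in the files.

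Signals are MAS5 signals on a linear scale. Differences are of log2(signal + 3.92) and were tested with limma across 15922 probe sets, with Benjamini-Hochberg adjusted p-values and a threshold of 0.05. The signal of a probe set depends on its probes, so levels are compared between arrays and not between genes. In bulk root RNA, fewer cells of a type and less RNA per cell cannot be told apart.

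At 8 h, ribosomal protein genes were higher at pH 6 than at pH 4.5. Of the 31 genes, 22 were called higher at pH 6 and 1 lower, whereas 14.6% of all tested probe sets were called higher and 13.3% lower. The median log2 difference of the 31 genes was 0.38, against 0.03 for all tested probe sets. Of the 31 differences 30 were above 0, against 8539 of all 15922 tested probe sets. The differences called higher were modest, from 1.21-fold to 1.56-fold in signal plus the added constant, which slightly understates differences of dim probe sets. In 24 of the 31 genes every pH 6 array lay above every pH 4.5 array, an arrangement seen in 22.4% of all tested probe sets, and in 1 gene every pH 6 array lay below, as in 19.1% of all. Both subunits took part. Of 24 small subunit genes 16 were higher at pH 6 and 1 lower (median 0.38), and 6 of 7 large subunit genes were higher (median 0.40).

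**Figure D1:**
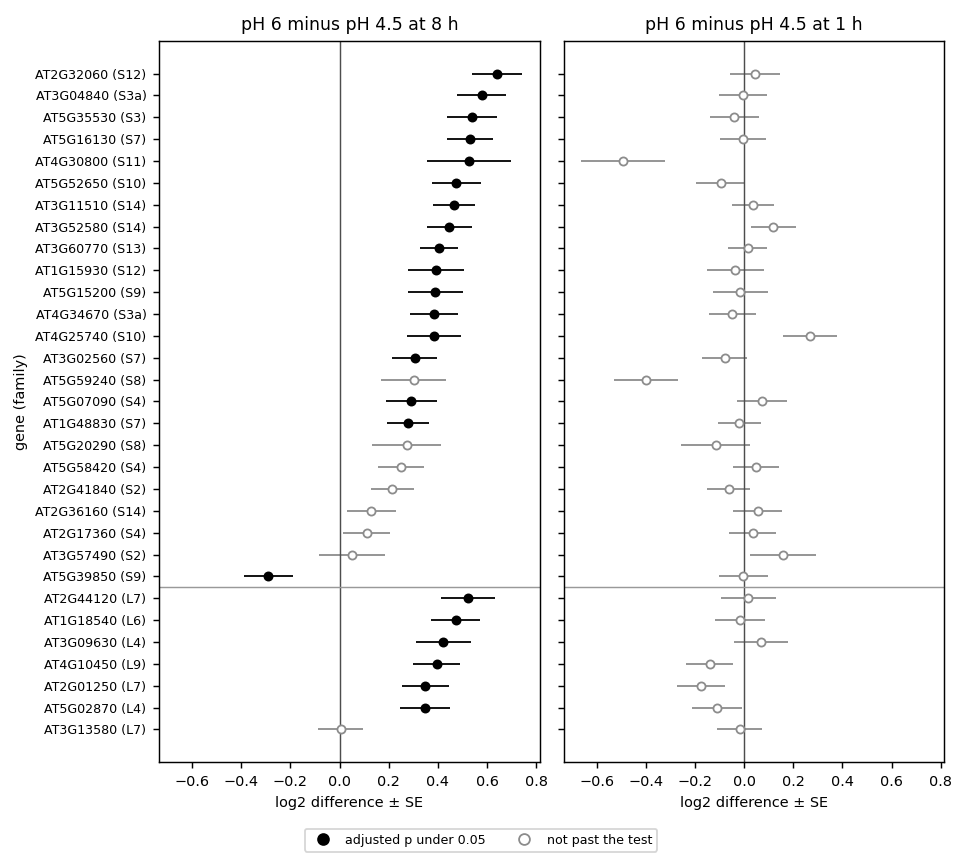
The log2 difference of pH 6 minus pH 4.5 (horizontal axis, ± SE, 3 arrays a group) is shown for each of the 31 genes (vertical axis; S, small subunit; L, large subunit, below the line), at 8 h on the left and 1 h on the right. Filled points have an adjusted p under 0.05: 23 at 8 h, of which 22 lie above 0, and 0 at 1 h.

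Among the small subunit genes, AT2G32060, of the S12 family, had the largest difference. S12 is a protein of the beak of the small subunit. Its signals were 1079, 1157 and 1431 at pH 6 and 851, 743 and 739 at pH 4.5 after 8 h. The pH 6 arrays were all above the pH 4.5 arrays, with a log2 difference of 0.64 ± 0.10 (SE) and an adjusted p of 9.07e-05.

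AT3G04840 encodes an S3a protein, which lies on the platform near the exit of the messenger RNA. At 8 h it had 1997, 2233 and 2479 at pH 6 and 1544, 1466 and 1464 at pH 4.5. The groups did not overlap, and the gene was higher at pH 6 by 0.58 ± 0.10 on the log2 scale. Its paralogue AT4G34670 was higher at pH 6 by 0.38 ± 0.10, but had 0.21 with quantile normalization and was then not called (adjusted p 0.061).

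AT5G35530 encodes S3, a protein at the messenger RNA entry channel. It had 2244, 2619 and 2683 at pH 6 and 1725, 1573 and 1891 at pH 4.5, with a log2 difference of 0.54 ± 0.10. AT5G16130, of the S7 family, had 2008, 2142 and 2153 at pH 6 and 1541, 1369 and 1455 at pH 4.5, with a difference of 0.53 ± 0.09. In both genes the lowest pH 6 array was above the highest pH 4.5 array.

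AT4G30800, of the S11 family, varied more. Its signals at 8 h were 266, 277 and 233 at pH 6 and 170.0, 155 and 213 at pH 4.5. The groups did not overlap, and the difference of 0.53 ± 0.17 had an adjusted p of 0.026. That call was lost when any 1 of 4 arrays was left out (pH 6 replicate 1 or 2, or pH 4.5 replicate 1 or 2, at 8 h), with values of 0.43 to 0.51.

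The large subunit gene with the largest difference was AT2G44120, of the L7 family. It had 1682, 1646 and 1604 at pH 6 and 1330.2, 999 and 1124 at pH 4.5, a difference of 0.52 ± 0.11. The pH 6 arrays were close to each other and the pH 4.5 arrays were spread more widely, without overlap. AT1G18540 (L6) was higher at pH 6 by 0.47 ± 0.10. Both measured L4 genes were higher, AT3G09630 by 0.42 ± 0.11 and AT5G02870 by 0.35 ± 0.10. With quantile normalization the 2 L4 values were 0.24 and, no longer called, 0.16 (adjusted p 0.11). L4 reaches into the wall of the tunnel through which the new protein leaves the ribosome.

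**Figure D2:**
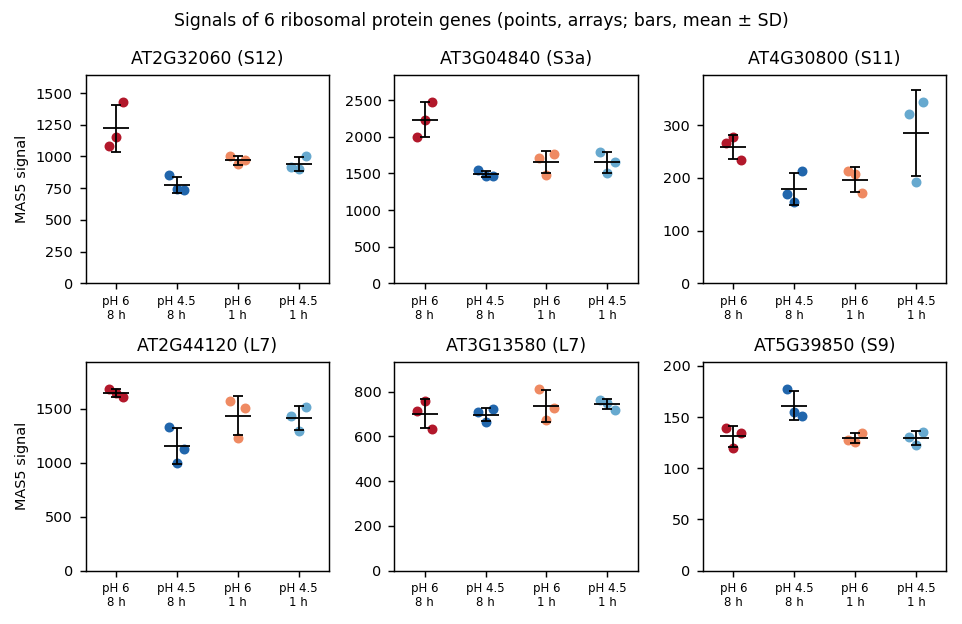
MAS5 signals (vertical axis, from 0) of 6 genes on each array (points) with the mean and SD of 3 arrays (bars), by pH and time. AT2G32060, AT3G04840, AT4G30800 and AT2G44120 are higher at pH 6 than at pH 4.5 at 8 h, AT3G13580 overlaps, and AT5G39850 is lower at pH 6.

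The exception was AT5G39850, an S9 gene. S9 lines the messenger RNA entry channel. Its signals at 8 h were 139, 119 and 135 at pH 6 and 177, 155 and 151 at pH 4.5, with every pH 6 array below every pH 4.5 array. The gene was lower at pH 6 by 0.29 on the log2 scale (SE 0.10), with an adjusted p of 0.040. The call was lost in 8 of 22 alternative settings, with adjusted p-values of 0.033 to 0.17 over all settings, including 5 in which 1 array was left out (pH 6 replicate 2 or 3 or pH 4.5 replicate 1 or 2 at 8 h, or pH 4.5 replicate 1 at 1 h). The other measured S9 gene, AT5G15200, had 3310.2, 3945 and 4092 at pH 6 and 2734, 2801 and 3101 at pH 4.5. It was higher at pH 6 by 0.39 ± 0.11. That value was 0.16 with quantile normalization, and the call was lost without pH 4.5 replicate 1 (0.35) or pH 6 replicate 3 (0.33) at 8 h.

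The 8 genes that did not pass at 8 h all had differences above 0. AT3G13580 (L7) was nearest to 0, at 0.005 ± 0.09, with a 95% interval of -0.19 to 0.20. AT3G57490 (S2) had 0.05 ± 0.13. The 2 S8 genes had 0.27 ± 0.14 for AT5G20290 and 0.30 ± 0.13 for AT5G59240.

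Paralogues differed in the size of their pH difference at 8 h. Of 11 families with at least 2 measured genes, 5 had every measured gene higher at pH 6, 4 were split and 2 had none. With quantile normalization 1 family, S10, had every measured gene higher. The widest span was in S9, at 0.68 between AT5G39850 and AT5G15200, followed by L7, at 0.52 between AT3G13580 and AT2G44120. S14 proteins sit on the platform of the small subunit. In this family AT3G11510 was higher at pH 6 by 0.47 ± 0.09 and AT3G52580 by 0.45 ± 0.09. AT2G36160 had 0.13 ± 0.10 and overlapping groups. The S7 family spanned 0.25, from 0.28 ± 0.09 for AT1G48830 to 0.53 for AT5G16130, and all its 3 genes were higher at pH 6. The call of AT3G02560 (S7) was lost with quantile normalization, at 0.12, and that of AT1G48830 was lost without the intensity trend and without pH 4.5 replicate 2 or 3 or pH 6 replicate 2 at 8 h. Differences between paralogues were not tested. All 31 probe sets carry the plain name that the array uses for probes to a single transcript, but paralogues are similar in sequence, and cross-hybridisation was not tested.

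At 1 h the same genes did not pass. With limma, 0 of 31 were called higher and 0 lower, against 5.26% and 5.55% of all tested probe sets. An unadjusted p under 0.05 was found for 3 of the 31, against 3754 of all 15922 tested probe sets. The median difference was -0.02, with 12 differences above 0 and 19 below, against 9381 above and 6541 below for all tested probe sets. All pH 6 arrays lay above all pH 4.5 arrays in 1 gene and below them in 1, against 16.5% and 11.5% of all tested probe sets. The 3 genes were AT4G30800, AT5G59240 and AT4G25740. AT4G30800 had 213, 206 and 170.3 at pH 6 and 320.2, 192 and 344 at pH 4.5, with overlapping groups, a difference of -0.49 ± 0.17 and an adjusted p of 0.074. AT5G59240 (S8) had 63.2, 67.7 and 60.9 at pH 6 and 80.7, 91.2 and 85 at pH 4.5, without overlap, a difference of -0.40 ± 0.13 and an adjusted p of 0.059. AT4G25740 (S10) had a difference of 0.27 ± 0.11. For the other 28 genes the 95% intervals lay within -0.41 and 0.44. Some alternative settings called 1 or 2 genes lower at 1 h. AT5G59240 was lower with quantile normalization, with the groups compared alone, with a replicate block, and without pH 6 replicate 2 or 3 at 8 h (1 each). AT4G30800 was lower at -0.75 without pH 4.5 replicate 2 at 1 h, and both were lower with array centring.

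The pH difference at 8 h was compared with that at 1 h in 1 test of the change. For 15 of 31 genes the difference was higher at 8 h, and for 0 lower, against 7.19% and 8.36% of all tested probe sets. An unadjusted p under 0.05 was found for 22 of the 31 genes, against 4483 of all 15922 tested probe sets. The median change was 0.40, against -0.02 for all tested probe sets. AT4G30800 had the largest change, 1.02 ± 0.24, made of -0.49 at 1 h and 0.53 at 8 h. AT5G59240 followed at 0.70 ± 0.19, then AT2G32060 at 0.60 ± 0.14, AT3G04840 at 0.58 ± 0.14, AT5G35530 at 0.58 ± 0.14 and AT5G52650 (S10, beak of the small subunit) at 0.57 ± 0.14. By subunit, 10 of 24 small subunit and 5 of 7 large subunit genes passed. Of the 22 genes higher at 8 h, 14 passed the test of the change and 8 did not. With quantile normalization 7 genes passed, and with no intensity trend 9.

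**Figure D3:**
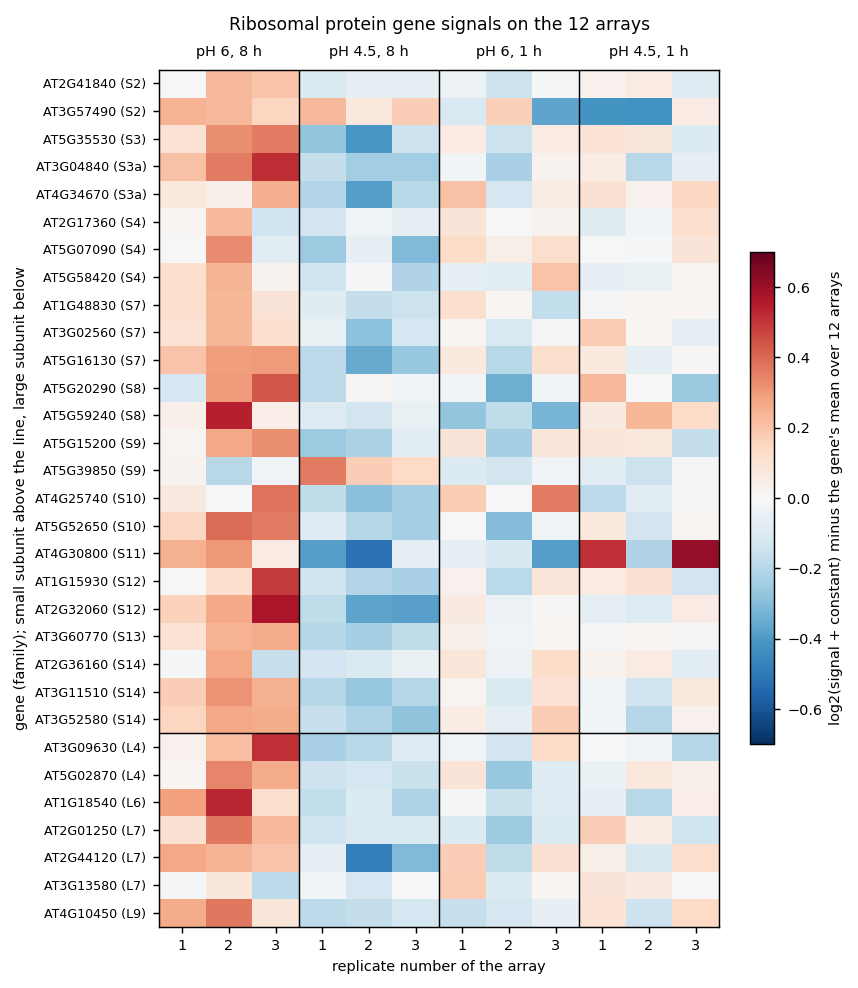
Each cell is the log2 signal of 1 of 31 genes (rows, with family) on 1 of 12 arrays (columns, by group and replicate), minus that gene's mean over the arrays. The pH 6, 8 h block is mostly red (above the gene's mean) and the pH 4.5, 8 h block mostly blue, with both 1 h blocks between; AT5G39850 and AT3G57490 are red at pH 4.5, 8 h.

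The time comparisons set 8 h against 1 h at each pH, and they share arrays with the pH comparisons. At pH 6, 7 of 31 genes (22.6%) were higher at 8 h than at 1 h and 0 were lower, against 8.91% and 10.6% of all tested probe sets. At pH 4.5, 2 (6.45%) were higher and 4 (12.9%) lower, against 12.7% and 11.1%. The share called lower at pH 4.5 was thus near that of all tested probe sets, and the share called higher was below it. At pH 6 every 8 h array lay above every 1 h array in 15 genes and below in 0, against 16.8% and 16.9% of all tested probe sets. At pH 4.5 they lay above in 2 genes and below in 11, against 21.1% and 17.9%. The median difference of 8 h minus 1 h was 0.23 at pH 6 and -0.16 at pH 4.5, against 0.01 and 0.02 for all tested probe sets. Of the 31 genes 24 were above 0 at pH 6 and below 0 at pH 4.5, a count not taken over all probe sets. Of the 22 genes that were higher at pH 6 at 8 h, 12 passed neither time test. Bright probe sets outside the ribosomal protein lists also rose with time at pH 6. Of the 105 with a mean signal of 2000 or more, 35.2% were called higher (median 0.25). Of the 303 with 1000 to 2000, 25.1% were (median 0.12). In those bands 1 of 8 (12.5%, median 0.25) and 3 of 13 (23.1%, median 0.20) of the 31 genes were called higher. The part of signal level in the rise at pH 6 was not tested.

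At pH 6, the genes higher at 8 h were AT5G59240 (0.47 ± 0.13), AT3G04840 (0.44 ± 0.10), AT5G52650 (0.41 ± 0.10), AT1G18540 (0.40 ± 0.10), AT2G01250 (L7, 0.38 ± 0.10), AT4G10450 (L9, 0.35 ± 0.10) and AT2G32060 (0.32 ± 0.10). AT5G52650 had 1637, 1940.1 and 1901 at 8 h and 1483, 1199 and 1449.6 at 1 h, without overlap. This count rested on single arrays: it was 3 without pH 6 replicate 2 at 8 h and 12 without pH 6 replicate 1 at 8 h. With quantile normalization the median at pH 6 was 0.04, near the 0.02 of all tested probe sets. In that setting 4 of the ribosomal protein genes were called higher, against 1462 of all 15922 tested probe sets.

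At pH 4.5, the genes lower at 8 h were AT4G30800 (-0.63 ± 0.17), AT4G34670 (-0.36 ± 0.10), AT5G35530 (-0.30 ± 0.10) and AT5G16130 (-0.27 ± 0.09). AT4G34670 had 1744, 1538 and 1756 at 8 h and 2168, 2059 and 2226 at 1 h, without overlap. The genes that were higher were AT3G57490 (0.42 ± 0.13) and AT5G39850 (0.30 ± 0.10). AT3G57490 had 293, 263 and 282 at 8 h and 186, 185 and 259.9 at 1 h. The 4 lower calls became 0 without pH 4.5 replicate 2 at 8 h, 1 without pH 4.5 replicate 1 at 1 h and 2 without pH 4.5 replicate 3 at 1 h. The 2 higher calls became 0 without pH 4.5 replicate 1 or 2 at 1 h or replicate 1 at 8 h, and 1 without pH 4.5 replicate 2 or 3 at 8 h.

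Over the 4 groups, 24 of 31 genes had their highest mean at pH 6, 8 h, and 26 had their lowest at pH 4.5, 8 h. These counts use the same arrays as the comparisons above and were not taken over all tested probe sets. Centred on each gene's mean, the median of the 31 genes was 0.10, 0.27 and 0.23 on the pH 6, 8 h arrays and -0.16, -0.19 and -0.15 on the pH 4.5, 8 h arrays. It was 0.03, -0.12 and 0.01 on the pH 6, 1 h arrays and 0.03, -0.02 and 0.01 on the pH 4.5, 1 h arrays. The 8 h groups did not overlap, while the 1 h groups did. The summed signal of the 31 probe sets made up 1.71 ± 0.09% of an array's total at pH 6, 8 h, 1.36 ± 0.02% at pH 4.5, 8 h, 1.51 ± 0.09% at pH 6, 1 h and 1.52 ± 0.04% at pH 4.5, 1 h (SD, n = 3 each).

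The 4 probe sets shared by sister genes were read in the same fit. The probe set of the S2 genes AT1G58380, AT1G58684, AT1G58983 and AT1G59359 averaged 3878 ± 572 at pH 6 and 3112 ± 187 at pH 4.5 at 8 h, and was called higher (0.31 ± 0.11, adjusted p 0.049). The L9 pair AT1G33120 and AT1G33140 averaged 1879 ± 214 at pH 6 and 1267 ± 154 at pH 4.5, a difference of 0.57 ± 0.10. The S3 pair AT2G31610 and AT3G53870 was higher at pH 6 by 0.38 ± 0.13. The L6 pair AT1G74050 and AT1G74060 had 0.25 ± 0.09 and did not pass. Which gene of a pair carries a change cannot be told apart.

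Genes outside the list were read from lists of known function. Of 168 other cytosolic ribosomal protein genes listed, 100 were named and 87 tested. At 8 h 57 of the 87 (65.5%) were higher at pH 6 and 0 lower, against 14.6% and 13.3% of all tested probe sets. Their median was 0.36, and 68 had an unadjusted p under 0.05, against 6052 of all 15922 tested probe sets. The largest were AT1G07070 at 0.76 ± 0.12, AT3G09200 at 0.69 ± 0.12 and AT3G07110 at 0.67 ± 0.10. At 1 h 1 was higher, AT4G25890 at 0.38 ± 0.11, and 1 lower, AT5G60670 at -0.42 ± 0.12, against 5.26% and 5.55% of all tested probe sets. In the test of the change, 34 of 87 (39.1%) had a higher pH difference at 8 h and 0 a lower one, against 7.19% and 8.36% of all tested probe sets.

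Of all tested probe sets, 14.6% were higher at pH 6 at 8 h and 13.3% lower, with 6052 of 15922 at an unadjusted p under 0.05. Ribosome assembly genes process ribosomal RNA and fit the proteins to it. Of 14 such genes, 9 (64.3%) were higher at 8 h and 0 lower (12 at an unadjusted p under 0.05), with a median of 0.33. The largest were AT3G03920 at 0.54 ± 0.12, AT3G18600 at 0.48 ± 0.12 and AT2G40360 at 0.47 ± 0.09. At 1 h limma called 0 of these 14, with 0 at an unadjusted p under 0.05. Of all tested probe sets, 5.26% were higher at 1 h and 5.55% lower, with 3754 of 15922 at an unadjusted p under 0.05. In the test of the change, 2 of the 14 assembly genes (14.3%) had a higher pH difference at 8 h and 0 a lower one (median 0.33). The shares of all tested probe sets there were 7.19% and 8.36%. Of 8 initiation factor genes, which start translation, 3 (37.5%) were higher at 8 h and 1 (12.5%) lower. AT1G72730 had 0.52 ± 0.10, AT2G40290 had 0.34 ± 0.10 and AT5G35680 had -0.38 ± 0.11. At 1 h 1 of the 8 was higher. Of 2 elongation factor genes, AT5G19510 was higher at pH 6 by 0.38 ± 0.14 at 8 h. Of 7 tested nuclear genes for plastid ribosomal proteins, which belong to a separate ribosome, 1 was higher at 8 h, AT2G43030 at 0.41 ± 0.11. That share of 14.3% was near that of all tested probe sets. All 7 differences at 8 h were above 0, with a median of 0.27. In 5 (71.4%) every pH 6 array lay above every pH 4.5 array, against 22.4% of all tested probe sets. At 1 h limma called 0 of the 7 (3 at an unadjusted p under 0.05), with a median of 0.17. RAPTOR1, the only named gene of a list for the TOR kinase pathway that governs growth, had -0.01 ± 0.11 at 8 h. No RACK1 gene and no gene of the list for dividing cells was named in the probe table, so these are not analysed here.

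**Figure D4:**
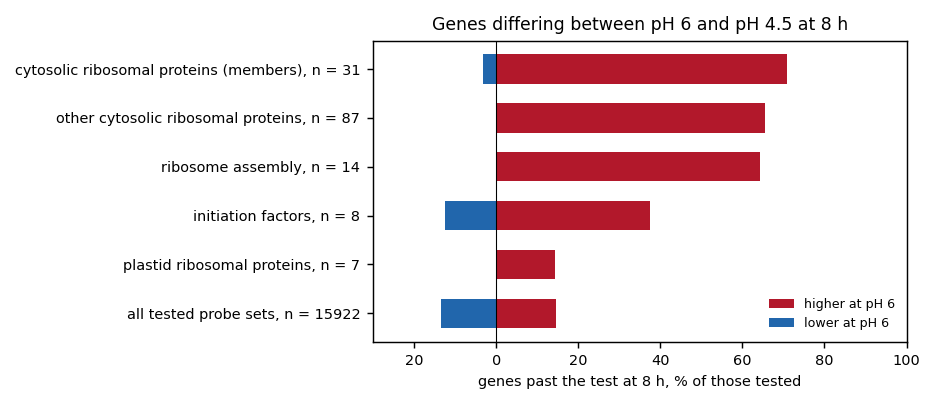
Share of tested genes called higher (right of 0, red) or lower (left of 0, blue) at pH 6 than at pH 4.5 at 8 h, for 5 lists and all 15922 tested probe sets, in % of those tested. Of the 31 ribosomal protein genes 71.0% were higher and 3.23% lower, and of all tested probe sets 14.6% and 13.3%.

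The arrays had been scaled to the same trimmed mean, and their median signals at 8 h were 39.1 ± 0.66 at pH 6 and 39.1 ± 0.83 at pH 4.5. Their bright end differed: the 99th percentile of signal was 1673, 1847 and 1874 at pH 6 and 1594, 1589.8 and 1609.7 at pH 4.5, without overlap. The 3′ to 5′ ratios of the control probe sets, a measure of RNA quality, overlapped at 8 h, at 17.6 ± 2.88 at pH 6 and 17.7 ± 2.82 at pH 4.5 for actin. For GAPDH they were 1.30 ± 0.19 at pH 6 and 1.44 ± 0.05 at pH 4.5. At 1 h the actin ratio was 14.6 ± 4.02 at pH 6 and 19.9 ± 1.51 at pH 4.5, without overlap. Root identity could be checked on 1 of 11 markers: EXPA7, a root hair expansin, was present at 125 to 140.4 at pH 6 and 54.6 to 77.6 at pH 4.5 at 8 h, and was higher at pH 6 by 0.96 ± 0.15. Of 12 shoot markers 3 were named, and their summed signal at 8 h was 67.9 to 97.6 at pH 6 and 59.7 to 75.7 at pH 4.5, with no common direction. RCA had 0.37 ± 0.20 and LHCB4.1 had 0.45 ± 0.17, both without overlap but not past the test. PSAN was called lower at pH 6 (-1.11 ± 0.36), from overlapping signals of 15.0, 2.73 and 0.63 at pH 6 and 10.8, 15.5 and 16.0 at pH 4.5. At 1 h that sum was 156 to 185 at pH 6 and 116 to 181 at pH 4.5. The part of these values in the ribosomal protein result was not tested.

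High signal moved in the same direction at 8 h. Among tested probe sets outside the ribosomal protein lists, the 105 with a mean signal of 2000 or more had a median of 0.22. Of these, 31 (29.5%) were called higher and 3 lower. The 303 with 1000 to 2000 had a median of 0.08, with 87 (28.7%) called higher and 52 (17.2%) lower. In those bands the medians of the ribosomal protein genes were 0.37 (8 genes, 6 higher) and 0.45 (13 genes, 12 higher). Quantile normalization, which gives each array the same distribution of signals, reduced the median of the 31 genes at 8 h to 0.24 with 18 genes higher and 0 lower. Of these 18, 17 were among the 22, and the 5 not called were AT1G15930, AT2G01250, AT3G02560, AT4G34670 and AT5G02870. The bright probe sets may include unnamed ribosomal protein genes, and the part of signal level in the result was not tested.

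**Figure D5:**
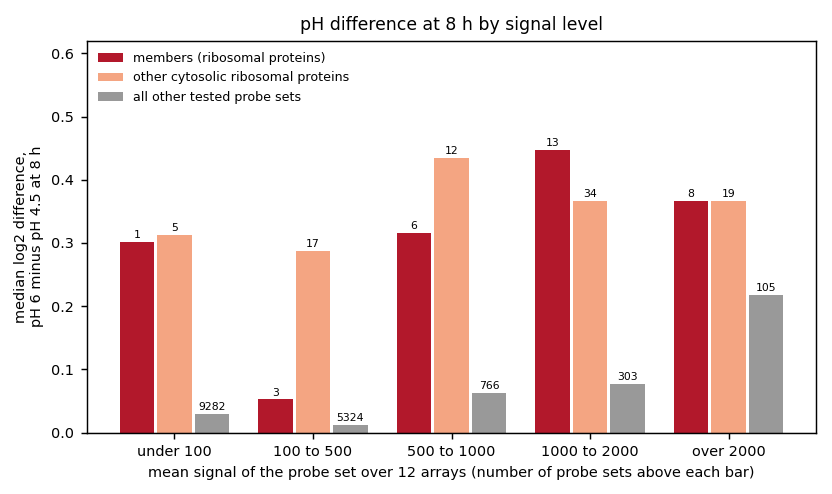
Median log2 difference of pH 6 minus pH 4.5 at 8 h (vertical axis) of tested probe sets in bands of mean signal (horizontal axis), for the 31 genes, the other cytosolic ribosomal protein genes and all other tested probe sets, with the number of probe sets above each bar. Each band shows both kinds of ribosomal protein genes above the other probe sets, from few genes under 500. From 100 to 500 the medians are 0.05 for 3 of the 31 genes, 0.29 for 17 other ribosomal protein genes and 0.01 for the other probe sets. In the brightest band the medians are 0.37 for both kinds of ribosomal protein genes and 0.22 for the other probe sets.

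The profiles over the 12 arrays were compared as a description. The Pearson correlation of each gene with the median of the other members had a median of 0.81 over the 31 genes and was above 0.7 for 20 of them. It was highest for AT5G16130, at 0.96, and lowest for AT5G39850, at -0.61, with AT3G57490 at 0.02 and AT3G13580 at 0.12. Among 8649 tested genes outside the list, the 5 whose profiles were most like the median profile of the members were AT1G67430 (r = 0.98), AT1G26880 (0.97), AT2G47610 (0.97), AT3G16080 (0.96) and AT2G34480 (0.96). All 5 are on the list of other cytosolic ribosomal protein genes, which made up 1.01% of the genes compared and 12 of the 20 most alike. These correlations share arrays and scaling.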

How the data were processed

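Labelled root RNA was read on 12 Affymetrix ATH1 arrays, 3 per group. The submitters' processing notes name GCOS and the MAS5 algorithm for the deposited intensity values (versions not given in the sources used here). The values are linear, and each array had a mean near 100 without its highest and lowest 2%. The array number limits the precision.

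Of 22810 probe sets, 64 controls were left out, 13514 name 1 gene, 502 several and 8730 none. Names came from the platform annotation, of which 13485 probe sets matched RefSeq (TAIR10.1).

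log2(signal + 3.92), a constant of 10% of the median signal, was fitted with limma 3.58.1 (R 4.3.3), 1 mean per group over all 12 arrays, with eBayes and intensity trend. Benjamini-Hochberg adjustment covered the 15922 probe sets above the lowest 30% by mean signal (under 11.1). The fit was tested on simulated data. The members and gene lists were chosen with earlier results of these data known, and the lists were written from general knowledge. Named genes were, per comparison, the 6 largest calls each way, calls against the majority, members with the 3 highest and lowest signals, both ends of the 4 widest families, and for other lists up to 3 calls. Other genes were named after their values were seen. No sequences were used.

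Alternatives were 2 constants, 2 filters, 3 scalings (1 chosen after seeing the data), no trend, only the groups compared, a replicate block, shared probe sets, and each array left out.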

Additional observations from a re-analysis of the deposited data

Results flagged for a closer look

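The pH difference of 15 of the 31 genes was larger at 8 h than at 1 h by the test of the change itself. The changes (log2) were 1.02 for AT4G30800, 0.70 for AT5G59240, 0.60 for AT2G32060, 0.58 for AT3G04840, 0.58 for AT5G35530, 0.57 for AT5G52650, 0.54 for AT4G10450, 0.53 for AT5G16130, 0.52 for AT2G01250, 0.50 for AT2G44120, 0.49 for AT1G18540, 0.46 for AT5G02870, 0.43 for AT4G34670, 0.43 for AT3G11510 and 0.39 for AT3G60770. AT4G30800 and AT5G59240 combine differences below 0 at 1 h with differences above 0 at 8 h.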

How the results depend on the processing

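Named genes kept their direction in each alternative tried where they were called, and in the pH comparison at 8 h the calls of AT5G39850 and AT4G30800 were lost in 8 and 6 of 22 settings. At pH 4.5 over time that of AT5G16130 was lost in 7, and those of AT5G35530 and AT3G57490 in 6 each. At 8 h the members called lower numbered 0 with quantile normalization, without the trend and with only the groups compared, and the median was 0.24 with quantile normalization. At 1 h the members called lower numbered 2 with array centring (median -0.078) and 1 with quantile normalization, with only the groups compared and with the replicate block. For the change, quantile normalization gave 7 higher (median 0.17), no trend gave 9, and array centring a median of 0.47. At pH 4.5 over time, array centring gave 1 higher and 7 lower (median -0.19), no filter 1 and 2, and no trend 1 and 2. At pH 6 over time, array centring gave 11 higher, and quantile normalization 4 (median 0.042, against 0.020 for all tested probe sets). Array centring moved the higher share of all calls at 1 h to 33.8%, against 48.7%, and that of the change to 56.5%, against 46.2%. The cause was not tested.

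Leaving out 1 array gave, at 8 h, 16 to 23 higher, 0 to 1 lower and a median of 0.33 to 0.43; at 1 h, 0 to 0 higher, 0 to 1 lower and -0.05 to 0.04; for the change, 10 to 18 higher, 0 to 0 lower and 0.35 to 0.47. At pH 4.5 over time it gave 0 to 2 higher, 0 to 5 lower and -0.17 to -0.14, and at pH 6, 3 to 12 higher, 0 to 0 lower and 0.18 to 0.29. Replicate numbers were not used to pair the samples in the main fit. The 18 same-numbered pairs of arrays correlated between -0.09 and 0.17, 5 of them over 0.1. The 36 differently numbered pairs correlated between -0.19 and 0.20, 2 of them over 0.1. Whether arrays of the same number share an effect was not tested. The replicate block gave 22 higher and 1 lower at 8 h, 14 and 0 for the change, 2 and 5 at pH 4.5 over time and 7 and 0 at pH 6.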
